A study of Mus musculus with 16 samples.

Results

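The sirtuin family of the mouse, Sirt1 to Sirt7, was examined in 9 peak lists from chromatin immunoprecipitation and sequencing (ChIP-seq) of primary macrophages. The members were the 7 named genes, out of 49943 genes (21887 of them protein-coding) of the RefSeq table on the chromosomes used. A peak belonged to a member when it touched the GRCm38 bounds of the gene or the 10 kb on either side, a stretch called the window below. The 7 windows spanned 255.3 kb and held 100 of the 368675 peaks of all lists.

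Cells came from the bone marrow of adult C57BL/6 mice, were grown for 5 days with M-CSF and, unless stated, were wild type and untreated. The libraries were EZH2 in untreated cells, EZH2 in cells given nigericin after LPS priming, p53, H3K27ac, H3K27me3, and SIRT1 in 4 cultures. Those cultures were Ezh2 knockout, p53 knockout and a wild type labelled for each of these. Of the 16 samples, 9 were immunoprecipitations with 1 library per group and 7 were inputs. The labels do not say how the knockouts were made or how many mice gave cells. LPS and nigericin cannot be told apart, since no library had LPS alone. With 1 library per group there is no replicate check, and no test of a difference between conditions was made.

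Sirtuins are enzymes that use NAD+ to remove acetyl and other acyl groups from lysines of histones and other proteins. SIRT1, SIRT6 and SIRT7 act mainly in the nucleus, SIRT2 mainly in the cytoplasm, and SIRT3, SIRT4 and SIRT5 in mitochondria. In macrophages, SIRT1 and SIRT6 are known for restraining transcription driven by NF-kB. In these data SIRT1 is both a product of a member gene and the protein that 4 of the libraries targeted.

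Of the labelled cell type, H3K27ac peaks lay in the windows of 8 of 8 macrophage markers, with a median highest fold of 5.42, and within 1 kb of the start of the 5 that had an annotated start. Windows set the same way held H3K27ac at 2 of 6 neutrophil and myeloid precursor markers and 4 of 5 lymphocyte markers. They held it at 1 of 4 stroma markers and 1 of 3 erythroid markers. Median highest folds where present were 4.31, 3.47, 4.88 and 3.77 in that order, and the lymphocyte marker Ms4a1 reached 6.09. None of those other markers had H3K27ac within 1 kb of a start (0 of 6, 0 of 3, 0 of 2 and 0 of 2 with an annotated start). Over all protein-coding genes the shares were 41.6% in the window and 25.5% at the start. Few markers had a start, so these counts of 0 describe the listed genes only. Lists held from 5068 (p53) to 88037 (H3K27me3) peaks. Both histone lists stop at a q of 0.05, while 1746 EZH2 peaks of untreated cells, 761 of nigericin-treated cells, 59 p53 peaks and 180 to 524 SIRT1 peaks per list met that q.

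The start-side bounds of Sirt2, Sirt3, Sirt6 and Sirt7 lie 28 to 107 bases from the bounds of a neighbouring gene. Sequences at the starts are shown to place the peaks described next. RefSeq promoters (GRCm38.p6, 250 bases before to 50 after each start) matched 7 of 7 members, with 9 starts in all since Sirt3 and Sirt6 have a pair each. Each line gives only bases outside the member's bounds, except for Sirt6, where 30 bases around a motif match inside its bounds are given. All are printed 5′ to 3′ on the member's strand, and capitals mark matches to the motifs named in the next paragraph, which the lines without capitals do not hold.
Sirt1, the 250 bases before its start (chr10:63339036-63339285, minus strand): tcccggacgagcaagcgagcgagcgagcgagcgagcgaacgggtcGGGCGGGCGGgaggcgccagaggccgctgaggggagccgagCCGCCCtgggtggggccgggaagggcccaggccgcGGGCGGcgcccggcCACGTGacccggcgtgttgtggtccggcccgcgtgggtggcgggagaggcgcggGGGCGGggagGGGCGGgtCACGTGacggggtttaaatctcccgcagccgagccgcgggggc
Sirt2, the 107 bases between it and Nfkbib (chr7:28766645-28766751, plus strand): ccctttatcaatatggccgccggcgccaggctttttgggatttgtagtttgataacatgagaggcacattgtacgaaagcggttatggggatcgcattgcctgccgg
Sirt3, the 84 bases between it and Psmd13 (chr7:140882310-140882393, minus strand): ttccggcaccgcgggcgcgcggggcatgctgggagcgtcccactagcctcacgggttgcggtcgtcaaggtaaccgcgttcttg
Sirt5, the last 104 bases before its bounds (chr13:43365285-43365388, plus strand): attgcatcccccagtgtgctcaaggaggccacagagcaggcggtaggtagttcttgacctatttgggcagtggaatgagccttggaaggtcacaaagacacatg
Sirt6, 30 bases around an NRF1 match (chr10:81627690-81627719, minus strand): catcaggaggGCGCATGCGCtctggaaaga
Sirt7, the 102 bases between it and Mafg (chr11:120625015-120625116, minus strand): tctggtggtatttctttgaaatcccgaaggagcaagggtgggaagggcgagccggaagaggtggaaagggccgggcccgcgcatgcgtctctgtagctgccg

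The Sirt1 promoter stood apart in composition. It held 47 CpG dinucleotides at 79% G+C, a CpG number reached by 1.83% of the 21263 protein-coding promoters, whose median was 13. The other 8 member promoters held 15 to 24 CpG, all above that median. The SP1 letters GGGCGG were found 7 times in the Sirt1 promoter, counting overlapping matches and both strands, and occur in 46.2% of protein-coding promoters. The E-box CACGTG, which 7.84% of promoters hold, occurred at 2 places in Sirt1 and in no other member. The NRF1 motif (GCGCA directly followed by TGCGC, held by 1.33%) occurred in Sirt6 alone among the members, before its upstream start. The ETS letters CCGGAAGT (5.15%) were found in the upstream promoters of Sirt3 and Sirt6, and CCAAT (38.2%) in Sirt2, Sirt5 and the downstream promoter of Sirt3. SP1 matches were also found in Sirt2, Sirt3, Sirt5, Sirt6 and Sirt7. No member promoter held the CRE letters TGACGTCA (2.23% of promoters), TATAAA (12.6%) or the decamer of the p53 consensus (7.37%). Such matches describe letters in these windows only.

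**Figure D1:**
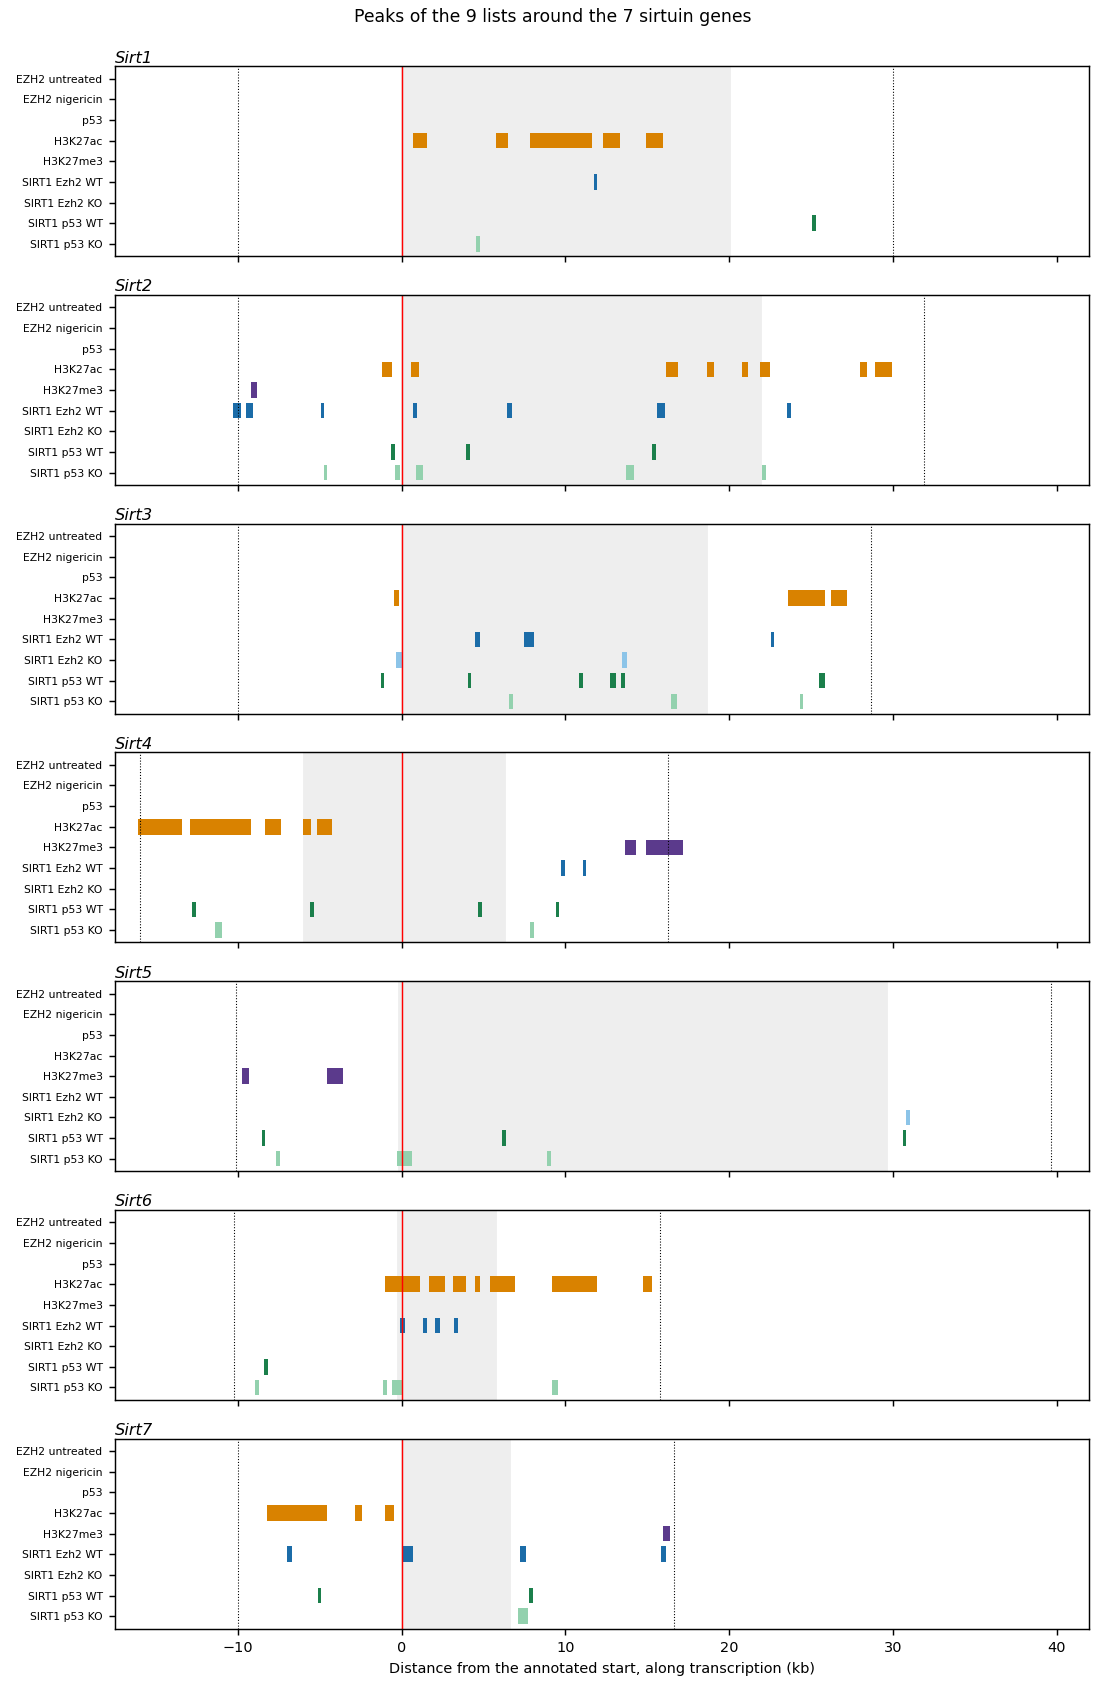
Peaks of the 9 lists around the 7 sirtuin genes. The x axis is distance in kb from the annotated start along transcription (the upstream start for Sirt3 and Sirt6), grey marks the gene bounds, the red line the start, dotted lines the window, and each bar is 1 peak. The EZH2 and p53 rows are empty, H3K27ac is present at all genes but Sirt5, and H3K27me3 bars lie outside the bounds of the 7 sirtuin genes.

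EZH2, the methyltransferase that makes H3K27me3, and p53 had no peak in any sirtuin window. In untreated cells EZH2 peaks lay in the windows of 0 of 7 members, against 19.6% of protein-coding genes, and after nigericin in 0 of 7, against 12.5%. For p53 the count was 0 of 7 against 7.5%. Within 1 kb of a start the counts were also 0 of 7, against 6.41%, 3.66% and 0.372% of protein-coding genes. For 7 genes, counts of 0 lie near shares this low. At these genes there was no EZH2 peak to compare between untreated cells and cells given LPS and nigericin.

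The nearest EZH2 peaks, whatever their q, lay from 33.6 to 346.8 kb away. Among them only the untreated peak near Sirt7 had a q of at most 0.05. In untreated cells the nearest EZH2 peak meeting that q lay from 33.6 kb (Sirt7) to 2623.5 kb (Sirt5) away. After nigericin it lay from 48.5 kb (Sirt4) to 2624.6 kb (Sirt5) away. The distances that follow are to peaks of any q. At Sirt7, which encodes a nuclear sirtuin of the nucleolus, an untreated EZH2 peak of 4.28-fold lay 33.6 kb from the gene bounds and a nigericin peak of 1.96-fold lay 36.0 kb away. At Sirt3, the gene of the main mitochondrial deacetylase, both lists had a weak peak at about the same distance, 2.07-fold at 40.3 kb in untreated cells and 2.61-fold at 38.7 kb after nigericin. At Sirt4 the distances were 42.8 and 47.1 kb. At Sirt1 an untreated peak of 2.09-fold lay 52.5 kb away and the nearest nigericin peak 161.2 kb away. Sirt2, Sirt5 and Sirt6 had their nearest untreated EZH2 peak at 136.2, 177.8 and 124.0 kb. The nearest p53 peak lay from 343.3 kb (Sirt5) to 1672.5 kb (Sirt6) away, and none of these nearest peaks had a q of at most 0.05. The whole p53 list held 59 peaks meeting that q. The nearest of those lay from 2793.6 kb (Sirt3) to 75787.8 kb (Sirt6) away.

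H3K27ac, a mark of active promoters and enhancers, was present at 6 of 7 sirtuin windows, against 41.6% of protein-coding genes. Among the 8638 protein-coding genes with bounds as long as those of the members (6006 to 29815 bp), the share was 44.7%. Sirt5 was the member without it. With no flank the mark was present at 4 of 7, since all peaks of Sirt3 and Sirt7 lay outside their bounds. The share of protein-coding genes with no flank is not given here. Within 1 kb of an annotated start the mark was present at 5 of 7 members (Sirt1, Sirt2, Sirt3, Sirt6 and Sirt7), against 25.5% of protein-coding genes. The 31 H3K27ac peaks had folds from 1.88 to 5.76 with a median of 3.07, where the fold is the authors' ratio of immunoprecipitated fragments to local background at a peak's summit. The median of the whole list was 3.34.

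**Figure D2:**
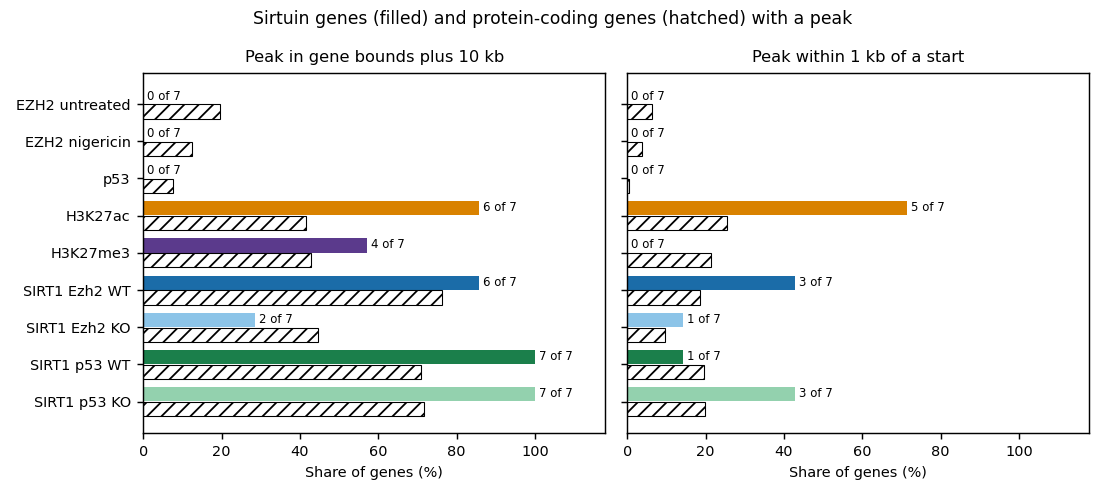
Share of genes with a peak in each list (x axis, percent) within the gene bounds plus 10 kb (left) and within 1 kb of a start (right). Filled bars are the 7 sirtuin genes with their count, hatched bars all protein-coding genes. The filled bar is longest relative to the hatched one for H3K27ac at the start, with 5 of 7 against 25.5%.

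The nuclear deacetylase gene Sirt1 (gene 93759, chromosome 10, 63319005 to 63339035, minus strand) carried 5 H3K27ac peaks, all inside the gene. They covered 37.4% of its bounds. The median was 4.38% over protein-coding genes of every length with H3K27ac in the window, including the flanks, so it is not matched for gene length. The peak nearest the start (63337464 to 63338331) began 704 bp into the gene with 3.11-fold and 18 fragments (exact Poisson 95% interval 10.7 to 28.4, counting error only). The widest peak ran from 63327401 to 63331230 with 2.33-fold and 41 fragments. None of the 9 lists had a peak over the 250 bases printed for Sirt1.

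Sirt6 (gene 50721, chromosome 10, 81621787 to 81627792, minus strand) encodes a chromatin-bound deacylase of histone H3. It had 7 H3K27ac peaks, which covered 63.9% of its short bounds, the largest share in the family. It was also the member whose start lay under an H3K27ac peak (81626448 to 81628582), as did the starts of 9.35% of protein-coding genes. That peak had 51 fragments (38 to 67.1) but a fold of 1.88, higher than only 0.938% of the list, over a background of 26.6 fragments. It also covered the start of Ankrd24, whose bounds begin 28 bp from those of Sirt6 on the opposite strand. The highest fold in the window, 4.85 with 22 fragments, lay past the 3′ end of the gene (81615619 to 81618362).

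Sirt7 (gene 209011, chromosome 11, 120618371 to 120625014, minus strand) encodes a deacetylase of H3K18 linked to ribosomal RNA synthesis. All 3 of its H3K27ac peaks lay before the start and inside Mafg, the small MAF factor gene that is read in the same direction and ends 102 bp away. The nearest (120625488 to 120626034) had 2.12-fold and 19 fragments at a gap of 474 bp. The strongest (120629580 to 120633263) had 3.07-fold and 56 fragments and lay 4566 bp away, close to the start of Mafg at 120633547. No H3K27ac peak lay inside Sirt7 itself.

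Sirt2 (gene 64383, chromosome 7, 28766752 to 28788665, plus strand), the gene of the cytoplasmic tubulin deacetylase, had the most H3K27ac peaks, 8. The start lay between peaks at 28765545 to 28766152 (2.35-fold, 37 fragments, inside Nfkbib) and 28767305 to 28767830 (2.22-fold, 21 fragments), at gaps of 600 and 553 bp. Nfkbib, which encodes the NF-kB inhibitor IkB beta, starts 107 bp away and is read in the opposite direction. The higher folds lay at the 3′ end of the gene. The highest, 5.24 with 19 fragments (28788651 to 28789251), covered the start of the next gene, Rinl, and exceeded 93% of the list.

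The mitochondrial members differed among themselves. Sirt3 (gene 64384, chromosome 7, 140863663 to 140882309, minus strand) had a start-side H3K27ac peak at 140882445 to 140882800 (2.05-fold, 35 fragments), which lay 136 bp before the start and inside Psmd13. Psmd13, a proteasome subunit gene, lies 84 bp from Sirt3 and is read in the other direction, so the peak lies near both starts and the file does not tie it to either gene. The strongest peak of the Sirt3 window (3.16-fold, 64 fragments) covered the start of Ric8a and the edge of Bet1l, past the other end of Sirt3. No H3K27ac peak lay inside Sirt3.

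Sirt4 (gene 75387, chromosome 5, 115478006 to 115490264, minus strand), which encodes a mitochondrial lipoamidase and ADP-ribosyltransferase, had 5 H3K27ac peaks, none within 1 kb of its annotated start at 115484297. The nearest lay 4233 bp before that start, but inside the gene bounds, which reach beyond the start on the upstream side. A peak at the upstream edge of the bounds (115489846 to 115490299) had the lowest q of all sirtuin peaks, 1.79e-26, with 3.89-fold and 99 fragments (80.5 to 120.5) over a background of 24.7. The small nuclear RNA gene Gm24407 overlaps it. The upstream end of the Sirt4 bounds, 115490264, also lies under this peak. The 4233 bp gap and the count of members with H3K27ac at the start therefore rest on the annotated start at 115484297. Whether transcripts begin at the upstream end was not tested. The highest fold of the family, 5.76 with 39 fragments, lay in the neighbouring Pxn gene (115493488 to 115497198).

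Sirt5 (gene 68346, chromosome 13, 43365389 to 43395203, plus strand), the gene of the mitochondrial desuccinylase, stood apart with no H3K27ac peak in its window. The nearest one lay 79057 bp from its start, while 61.8% of protein-coding genes had one as near or nearer and the median gap was 37615 bp. Its window held 2 H3K27me3 peaks, both before the start and in no annotated gene. They spanned 43360965 to 43361970 and 43355775 to 43356184, with 3.46-fold and 13 fragments each. The nearer ended 3565 bp before the start.

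**Figure D3:**
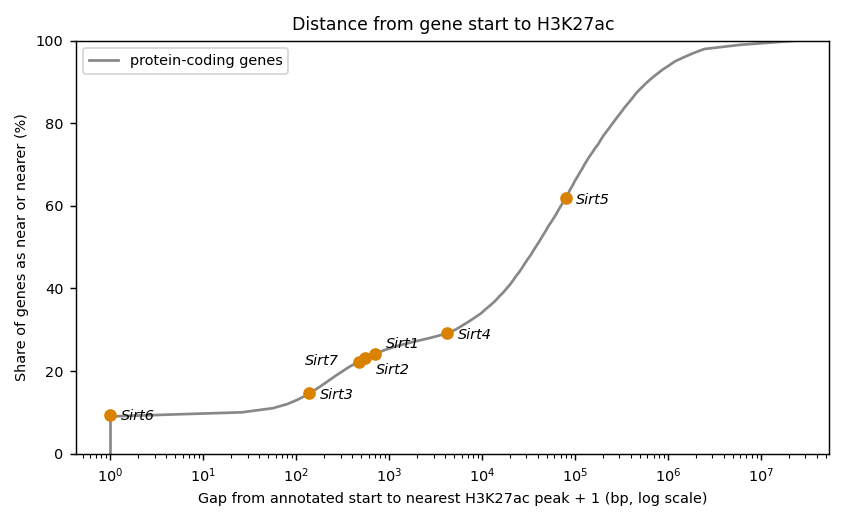
Gap between the annotated start and the nearest H3K27ac peak (x axis, bp plus 1, log scale) and the share of protein-coding genes as near or nearer (y axis, percent). The grey line is all 17492 protein-coding genes with a start and dots are sirtuins. Sirt6 sits at 0 bp, Sirt3, Sirt7, Sirt2 and Sirt1 between 136 and 704 bp, Sirt4 at 4233 bp and Sirt5 at 79057 bp.

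Sirtuin H3K27ac peaks near the starts had lower folds and higher local background than those elsewhere. The 6 peaks within 1 kb of a member start had a median fold of 2.17, a median of 28 fragments and a median background of 12.1 fragments, with backgrounds from 5.1 to 26.6. The 25 other member peaks had a median fold of 3.11, 19 fragments and a background of 5.95. The same order held over the whole list: 5201 peaks within 1 kb of a protein-coding start had a median fold of 3.14 over a background of 12.1, and the 46403 others had 3.35 over 5.02. Single starts varied, with 18 fragments at Sirt1 and 19 at Sirt7 but 51 at Sirt6. All 6 peaks at the starts had a −log10 q below 5, the highest being 4.188 at Sirt2, while 5 members had a peak past 5 somewhere in the window and 0 had one at the start. The share of all protein-coding genes past that limit is not given here, so these counts describe the members alone. Background and fragments were solved together from each fold and its p-value, so the background is not a separate measurement from the fold. The part of the local background in these folds was not tested.

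H3K27me3, the mark left by EZH2, lay in the windows of 4 of 7 members, against 42.7% of protein-coding genes, and within 1 kb of the start of 0 of 7, against 21.3%. None of the 6 peaks touched the bounds of a sirtuin gene. Besides those of Sirt5, they lay in the bounds of neighbours: Pla2g1b for Sirt4 (4.69-fold with 18 fragments and 2.87-fold with 12), Ccer2 for Sirt2 (3.71-fold, 14 fragments) and Npb for Sirt7 (2.87-fold, 12 fragments). Sirt1, Sirt3 and Sirt6 had none, and the nearest H3K27me3 peak lay 206.7 kb beyond the window at Sirt1, 9.6 kb beyond it at Sirt3 and 12.6 kb beyond it at Sirt6. At Sirt4 a further peak of 3.76-fold lay 1.3 kb outside the window, and at Sirt6 an H3K27ac peak of 4.53-fold missed the window by 68 bp. With 5 kb in place of 10 kb, 1 member had H3K27me3 in its window, and with no flank 0 did.

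**Figure D4:**
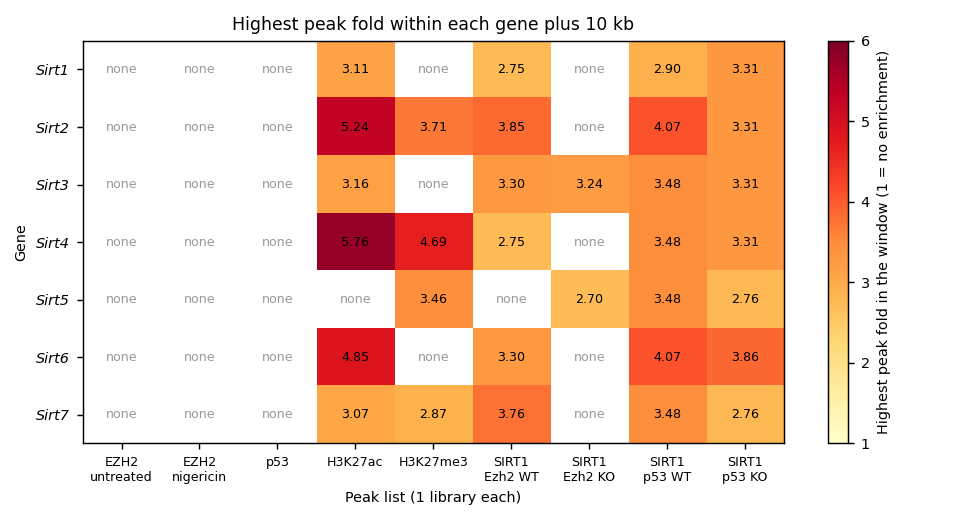
Highest authors' fold of any peak in the window of each sirtuin gene (rows) in each list (columns), with a colour scale from 1 to 6. White cells had no peak. Folds describe peaks within a list and do not measure change between lists. H3K27ac ranges from 3.07 at Sirt7 to 5.76 at Sirt4.

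SIRT1 peaks at the sirtuin genes rested on few fragments. The 4 lists had 63 peaks in the 7 windows: 21 and 3 in the wild-type and knockout cells of the Ezh2 pair, and 20 and 19 in those of the p53 pair. Their summits held 3 to 6 fragments, and none had a q of at most 0.05, for which every one of the 4 lists needed at least 8 fragments. The listed q was 1 for 57 of the 63 peaks and 0.354 at best. Folds ran from 2.2 to 4.07. No Sirt1 knockout library was analysed here, so the background of the antibody was not measured.

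**Figure D5:**
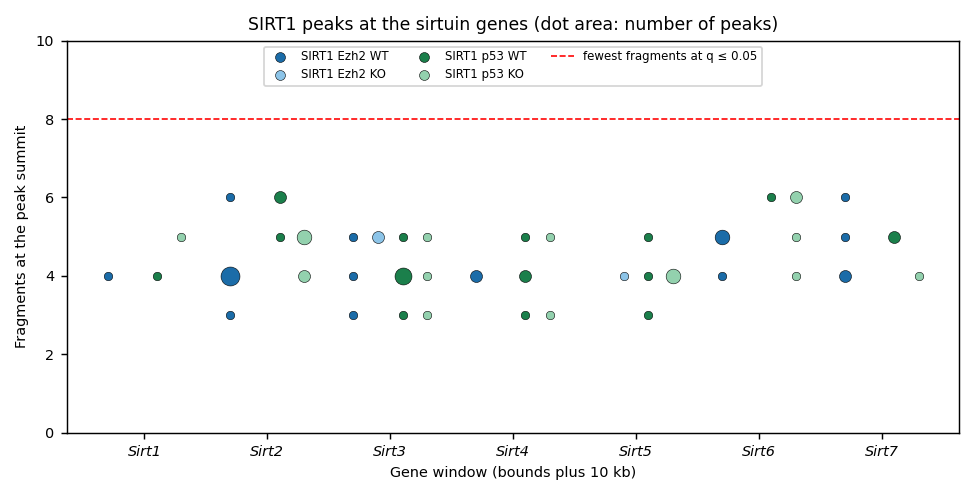
Fragments at the summit (y axis) of every SIRT1 peak in the window of each sirtuin gene (x axis), coloured by library, with dot area proportional to the number of peaks. The dashed line at 8 marks the fewest fragments of any peak with a q of at most 0.05 in these lists. All 63 peaks lie between 3 and 6 fragments, below the line.

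By list, SIRT1 peaks lay in the windows of 6 of 7 members in Ezh2 wild type, against 76.4% of protein-coding genes. In the Ezh2 knockout they lay in 2 of 7 (Sirt3 and Sirt5), against 44.5%. In p53 wild type they lay in 7 of 7, against 70.9%, and in the p53 knockout in 7 of 7, against 71.8%. Within 1 kb of a start, peaks lay at Sirt2, Sirt6 and Sirt7 in Ezh2 wild type (3 of 7, against 18.5%) and at Sirt3 in the Ezh2 knockout (1 of 7, 9.5%). In p53 wild type Sirt2 had one (1 of 7, 19.7%) and in the p53 knockout Sirt2, Sirt5 and Sirt6 did (3 of 7, 19.9%). Most of these shares lie near those of all genes.

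The peak number per gene varied. Sirt1 itself had the fewest, 3 over the 4 lists (1 in each p53 library, 1 with wild-type Ezh2 and 0 without Ezh2), which is 7.49 peaks per 100 kb of window (exact Poisson 95% interval 1.55 to 21.9). Sirt5 followed with 7 peaks and 14.1 per 100 kb (5.65 to 29). Sirt4 had 8 peaks and 24.8 per 100 kb (10.7 to 48.9), and Sirt7 had 7 and 26.3 (10.6 to 54.1). Summed over the 4 lists, the highest densities were at Sirt6 with 9 peaks and 34.6 per 100 kb (15.8 to 65.7), Sirt2 with 15 and 35.8 (20 to 59) and Sirt3 with 14 and 36.2 (19.8 to 60.8). These intervals cover counting error only, not spread between libraries or mice, and count overlapping peaks of different lists as separate. Neighbours in this order have widely overlapping intervals, and even those of Sirt1 and Sirt3 overlap. Differences between the genes were not tested. The order also changed with the list. In Ezh2 wild type Sirt2 led with 16.7 per 100 kb, followed by Sirt6 with 15.4 and Sirt7 with 15, and Sirt3 had 7.76. In p53 wild type Sirt3 led with 15.5, Sirt4 had 12.4 and Sirt6 had 3.85. In the p53 knockout Sirt6 led with 15.4, Sirt2 had 11.9 and Sirt7 had 3.75.

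These densities can be read against other genes. Among the 8638 protein-coding genes of like length the median was 16 SIRT1 peaks per 100 kb, with quartiles of 7.65 and 25.4. It was 22.3 where the window held H3K27ac and 11 where it did not. In the sum of the 4 lists Sirt1, which carries H3K27ac, lay just below the lower quartile, and Sirt2, Sirt3, Sirt6 and Sirt7 lay above the upper one. By list this did not hold throughout. Sirt1 had 2.5 per 100 kb in each of 3 lists, above their lower quartiles of 2.29 (Ezh2 wild type) and 0 (both p53 libraries). Sirt6 in p53 wild type and Sirt7 in the p53 knockout lay near the medians of those lists, 3.64 and 3.82. Sirt5, without H3K27ac, lay between the median of genes without it and that of all.

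Of the 63 SIRT1 peaks at sirtuin genes, 12 overlapped a peak of another SIRT1 list. Between Ezh2 wild type and knockout 0 peaks overlapped, as between p53 wild type and knockout and between both wild types. Over the whole lists, 1.94%, 4.97% and 3.93% of the peaks of the first named overlapped the second. The 6 overlapping pairs joined unlike genotypes: 4 were between Ezh2 wild type and p53 knockout, and 2 between Ezh2 knockout and p53 wild type. These were 4 of 21 peaks (19%) of Ezh2 wild type, against 4.3% over the whole list, and 2 of only 3 peaks of the Ezh2 knockout, against 6.98%. Between both knockouts 0 overlapped, against 7.3%. These shares of whole lists include peaks outside gene windows. Only 2 pairs shared at least 50% of the shorter peak, 1 in Pcyt2 beside Sirt7 (338 bp) and 1 inside Sirt3 (147 bp). The number of peaks also differed between the whole lists, with 74767 in Ezh2 wild type and 18170 in the Ezh2 knockout, so 21 and 3 peaks at the sirtuins stand beside a difference of the lists as a whole.

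Of the 63 SIRT1 peaks, 18 overlapped H3K27ac and 2 overlapped H3K27me3. By list the H3K27ac share was 5 of 21 (23.8%) in Ezh2 wild type, 1 of 3 in the Ezh2 knockout, 5 of 20 (25%) in p53 wild type and 7 of 19 (36.8%) in the p53 knockout. The corresponding shares of the whole lists were 9.97%, 15.5%, 12.3% and 13.3%. Whole lists also hold peaks outside gene windows, so the sets are not alike, and shares within the windows of other genes are not given here. Both H3K27me3 overlaps were in Ezh2 wild type, 2 of 21 (9.52%) against 8.46% of the whole list. The other lists had 0, against 9.51% for the Ezh2 knockout list, 8.94% for p53 wild type and 7.76% for its knockout. H3K27ac peaks numbered 12.1 per 100 kb in these windows, against 2.92 over the windows of protein-coding genes of every length. Among the 8638 genes of like length the upper quartile was 6.17, and the median of those with H3K27ac was 6.94. Members with the mark ranged from 7.76 (Sirt3) to 26.9 (Sirt6), and Sirt5 had 0. The part of H3K27ac density in the SIRT1 overlap was not tested.

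At the Sirt6 start, SIRT1 peaks of different libraries met over H3K27ac. The Ezh2 wild-type peak (81627370 to 81627663, 3.30-fold, 5 fragments) and the p53 knockout peak (81627545 to 81628168, 3.86-fold, 6 fragments) overlapped by 119 bp. Both lay within the H3K27ac peak at that start, and the p53 knockout peak covered the printed NRF1 match. Their q values were 1 and 0.531. Neither the Ezh2 knockout nor the p53 wild-type list had a peak there. A pair of the same kind lay just inside Sirt2, where Ezh2 wild type (28767446 to 28767692, 2.75-fold, 4 fragments) and p53 knockout (28767617 to 28768060, 3.31-fold, 5 fragments) met over the second H3K27ac peak.

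At Sirt3, Sirt5 and Sirt7 the SIRT1 peak at the start came from 1 library each. In the Ezh2 knockout a peak of 2.66-fold with 5 fragments (140882235 to 140882684) covered the bases printed between Sirt3 and Psmd13. In the p53 knockout a peak of 2.76-fold with 4 fragments (43365232 to 43366172) covered the Sirt5 start. In Ezh2 wild type a peak of 3.30-fold with 5 fragments (120624344 to 120624935) ended 79 bp inside Sirt7. All 3 had a listed q of 1.

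Inside Sirt1 the Ezh2 wild-type peak (63327083 to 63327282, 2.75-fold, 4 fragments) lay 11753 bp from the start. The p53 knockout peak (63334264 to 63334483, 3.31-fold, 5 fragments) lay 4552 bp from it. The p53 wild-type peak (2.90-fold, 4 fragments) lay past the end of the gene, in Herc4. None overlapped H3K27ac or each other.

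The pattern of the 7 genes over the 9 lists was compared by the distance between their highest folds on the log2 scale, with lists without a peak set to 0 on that scale. The closest members were Sirt2 and Sirt4 at a distance of 0.65, and Sirt1 and Sirt6 at 0.87. At Sirt2 the highest H3K27ac and H3K27me3 folds belonged to peaks over neighbouring genes (Rinl and Ccer2), as at Sirt4 (Pxn and Pla2g1b). The highest H3K27ac fold of Sirt6 lay past its 3′ end. Such distances describe windows and not the sirtuin genes alone. Sirt5 was farthest from the family, 2.90 from its nearest member, Sirt7. Outside the family the most similar genes were Ccl17 for Sirt1 (0.05), Pgghg for Sirt2 (0.11), Wdr48 for Sirt3 (3.17-fold for H3K27ac against 3.16 and the same folds in the other lists), C1qb for Sirt4 (0.04), Pink1 for Sirt5 (0.30), Diaph1 for Sirt6 (0.11) and Swi5 for Sirt7 (0.23). SIRT1 folds take few distinct values at 3 to 6 fragments, which makes close matches common.

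Genes that make and use NAD+ or bind sirtuins gave a mixed picture. Of 27 such genes, 15 had H3K27ac in the window, against 41.6% of protein-coding genes, and 6 of the 19 with an annotated start had it within 1 kb, against 25.5%. H3K27me3 lay at 6, against 42.7%. EZH2 peaks lay at 3 in untreated cells (19.6% of all) and at 4 after nigericin (12.5%), and p53 peaks at 0 (7.5%). The median highest H3K27ac fold was 3.95 where present, against 3.91 over all protein-coding genes. The highest were at Parp2 (6.32), a NAD+-consuming DNA repair enzyme gene, Qprt (5.77) and Nnmt (5.54), and Nampt, the rate-limiting enzyme of NAD+ salvage, had 4.98 with the mark at its start. H3K27me3 was highest at Sarm1 (10.9), which encodes a NAD+ hydrolase of axons, and Nmnat2 (7.77), a neuronal NAD+ synthase gene.

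The 11 classical deacetylase genes, which need zinc and not NAD+, included higher H3K27me3 folds than the sirtuins. H3K27ac lay at 7 of 11, against 41.6% of protein-coding genes, and within 1 kb of the start at 3 of the 8 with an annotated start, against 25.5%. Its highest folds were at Hdac1 (6.53), Hdac7 (6.27), Hdac4 (5.77) and Hdac3 (4.37). H3K27me3 lay at 6 (42.7% of all protein-coding genes), led by Hdac10 (9.58) and Hdac8 (7.16). Both were above the highest sirtuin value of 4.69, as was Sarm1 of the NAD+ list. These are highest folds in windows not matched for length. Whether the peaks lie in neighbouring genes was not examined. EZH2 peaks lay at 1 in untreated cells (19.6% of all) and 2 after nigericin (12.5%), and p53 peaks at 2 (7.5%).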

How the data were processed

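ChIP-seq peak lists of 9 libraries were used, 1 file each. MACS2, deepTools and the build GRCm38/mm10 are named in the submitters' processing notes. For the aligner, read filters and versions: not given in the sources used here. Each deposited fold column is a ratio of summit fragments to local background, each with 1 added. The deposited −log10 columns hold each peak's p-value and q-value. The deposited score is 10 times a −log10 value, that of q for the histone marks and that of p elsewhere. EZH2, p53 and SIRT1 lists reach down to a p of 0.01, whatever the q. Read totals are not given, so depth is known only through the fragments per peak. A Poisson model gave these from each fold with its p-value, and at least 98.53% of the fold and p-value pairs tried gave a whole number to within 0.0001 of the −log10 p. Solving and overlap code was checked on simulated data.

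Peaks on chromosomes 1 to 19, X and Y were kept, with 1-based coordinates and overlap of at least 1 bp. Gene bounds, starts and promoters came from RefSeq (GRCm38.p6). Backgrounds were 21887 protein-coding genes for windows and 17492 for starts. Python 3.11.15, pandas 2.3.3 and scipy 1.17.1 were used. Members and lists were chosen with earlier results of these data known. Named genes were all members, genes touching their windows where a peak turns on them, the most similar gene of each member, and from each gene list up to 4 with the highest H3K27ac and 2 with the highest H3K27me3 fold. Alternatives were q limits, flanks of 0 and 5 kb, summits in place of overlaps, lists of equal length, a wider start window, exclusion of places with a peak in all 7 non-histone lists, and an overlap of 50%.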

Additional observations from a re-analysis of the deposited data

How the results depend on the processing

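Alternatives that remove peaks or narrow windows cannot raise a count of 0, so they say nothing about the absence of EZH2 and p53 peaks. With 2 kb in place of 1 kb, 5 members had H3K27ac at the start, as before. All 6 H3K27ac peaks at member starts had a −log10 q below 5, so with that limit, tried at the starts after seeing the data, 0 members had H3K27ac there, and 0 had SIRT1 there in each list. With a q of at most 0.05, members with a SIRT1 peak fell to 0 in each of the 4 lists, in the window and at the start. In the windows, with a −log10 q of at least 5, they were also 0 in each SIRT1 list, 1 for H3K27me3 and 5 for H3K27ac. With each list limited to its best 5068 peaks, the members with a peak were 1 for H3K27ac, 0 for H3K27me3, 2 for SIRT1 in Ezh2 wild type, 0 in the Ezh2 knockout and 1 in the p53 knockout. In p53 wild type that limit kept 11043 peaks because of ties, with 6 members. Without flanks, H3K27ac lay at 4 members in place of 6, with 17 peaks in place of 31, and H3K27me3 lay at 0. Of the SIRT1 lists without flanks, those of the Ezh2 pair reached 5 (wild type) and 1 (knockout) members. Those of the p53 pair reached 4 (wild type) and 5 (knockout). With 5 kb flanks, H3K27ac lay at 6 members and H3K27me3 at 1. Within 2 kb of a start, p53 wild type had SIRT1 at 2 members. The 6 overlapping SIRT1 pairs became 2 at 50% of the shorter peak and 0 at a q of at most 0.05, alternatives chosen after seeing the data. Shares of all protein-coding genes are not given here for these alternatives, so the counts above describe the members alone. No paired analysis was possible because each group holds 1 library. Few fragments per SIRT1 peak limit what these lists can show at single genes.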
